A study of Mus musculus with 15 samples.

Results

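Of 15 mouse T cell leukemia lines, the 5 with the most and the 5 with the least mRNA of *Il2ra*, the gene of CD25, were set against each other over every other gene measured. These 10 lines were chosen by their own *Il2ra* values in the deposited table, so the difference in *Il2ra* between the sides is a description and carries no test. The 5 lines between the sides stayed out of that comparison and were used in a further fit over all 15 lines. Each line gave 1 library of total RNA and came from the thymus of diseased FVB/NJ mice, as cells grown in untreated culture for weeks; whether any 2 lines share a mouse was not stated. Of the 15 lines, 7 carried the label E2a-/- and 8 the label E2a-/-LefF/F LckCre+, called DKO below. All 15 therefore lacked E2A, and the DKO lines also carried floxed *Lef1* alleles with a Cre driven by the *Lck* promoter, which is active from early thymocyte stages onward. The age of the mice was not given in the labels. Values are CPM, the reads of a gene scaled to a fixed total of reads on genes per library, not divided by gene length, so levels were compared between lines and not between genes.

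CD25 is the alpha chain of the interleukin-2 receptor, which binds the cytokine together with the beta chain (*Il2rb*) and the common gamma chain (*Il2rg*). In the thymus it appears on early CD4-CD8- progenitors, marks the stages called DN2 and DN3, and is lost once the pre-T cell receptor has signalled; mature T cells show it again after activation, and regulatory T cells carry it steadily. *Il7r* encodes the alpha chain of the interleukin-7 receptor, which pairs with the same common gamma chain and signals through JAK kinases and STAT5.

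The promoters of both alpha chains are shown because *Il2ra* sets the sides and *Il7r* had the largest difference between them. The sequences are RefSeq's, build GRCm38.p6, 5′ to 3′ on the gene's own strand, and run from 250 bases before an annotated start to 50 bases after it. The *Il2ra* window is chr2:11642542-11642841 on the plus strand and the *Il7r* window is chr15:9529827-9530126 on the minus strand. Capitals mark letters matching 5 short motifs searched on both strands: TGGGAA (RBPJ, the DNA-binding partner of Notch), TGTGGT (RUNX factors), AGGAAG (ETS factors), TTCNNNGAA (STAT factors) and GGGAANNCC (NF-kappaB).
Il2ra: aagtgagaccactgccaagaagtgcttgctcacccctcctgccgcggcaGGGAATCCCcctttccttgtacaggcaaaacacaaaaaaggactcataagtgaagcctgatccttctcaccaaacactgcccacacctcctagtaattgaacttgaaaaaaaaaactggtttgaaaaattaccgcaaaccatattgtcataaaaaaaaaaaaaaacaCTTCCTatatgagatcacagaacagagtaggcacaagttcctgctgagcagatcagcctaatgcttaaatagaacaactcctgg
Il7r: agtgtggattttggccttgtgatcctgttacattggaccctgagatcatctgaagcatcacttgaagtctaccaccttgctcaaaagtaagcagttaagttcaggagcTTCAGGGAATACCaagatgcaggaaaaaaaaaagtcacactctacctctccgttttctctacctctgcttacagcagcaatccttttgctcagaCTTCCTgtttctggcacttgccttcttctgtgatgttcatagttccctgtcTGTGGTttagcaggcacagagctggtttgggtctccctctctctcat
The *Il2ra* window held the ETS letters and the NF-kappaB letters, 34 and 201 bases before the start. The *Il7r* window held the ETS letters 48 bases and the STAT letters 142 bases before the start, and the RUNX letters just after it. The NF-kappaB letters of this window overlap its STAT letters. Neither window held TGGGAA. Of 32851 mouse promoter windows of this length, 25.6% held TGGGAA, 16.8% TGTGGT, 35.4% AGGAAG, 8.30% TTCNNNGAA and 5.82% GGGAANNCC. Of the 16 genes called below, 11 had a window in the same table, and the letters were found in 3, 3, 5, 4 and 2 of them in that order. A gene was counted if any of its windows held the letters. The percentages are of single windows, so these counts and the percentages are not on the same basis. A match of letters is a description of the sequence only.

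*Il2ra* (ENSMUSG00000026770, listed on chromosome 2 from 11564419 to 11614818 in coordinates that are not those of GRCm38) spanned a 1978-fold range over the lines. On the CD25-high side it stood at 1636 CPM in DKO102.4, 1484 in DKO548, 1372 in DKOTu3, 678 in SKO186.5 and 601 in SKO156.6. On the CD25-low side it stood at 51.8 CPM in SKO163.5, 12.4 in DKO192.3, 8.65 in SKO115.2, 2.72 in SKO95 and 0.827 in SKO132. The mean was 1154 CPM ± 480 (SD, n = 5) on the high side and 15.3 CPM ± 20.9 (SD, n = 5) on the low side, and the lowest high line held 11.6 times as much as the highest low line. The levels formed a gradient rather than blocks: just outside the high side came DKO713 with 381 CPM, and just outside the low side came DKO170.2 with 70.1 CPM. The lowest value, in SKO132, rested on 15 reads.

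By their labels, both genotypes stood on both sides. The high side held 3 DKO and 2 E2a-/- lines, the low side 1 DKO and 4 E2a-/- lines, and the lines between them 4 DKO and 1 E2a-/- line. No association of genotype with side was detectable at this number of lines (2-sided Fisher's exact test, p = 0.524, n = 10). Over all 15 lines the mean of *Il2ra* was 675 CPM for the 8 DKO lines, with an SD of 695 CPM. For the 7 E2a-/- lines it was 244 CPM, with an SD of 300.01 CPM. The mean of log2(CPM + 1) was 2.64 higher in DKO, and this difference stayed within the spread of the lines (2-sided exact permutation test over 6435 splits, p = 0.116). These counts and tests take SKO132 as labelled E2a-/-, although its *Lef1*, at 59.0 CPM, lay below that of every DKO line; without it the difference was 1.85 (exact permutation test, p = 0.24).

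**Figure D1:**
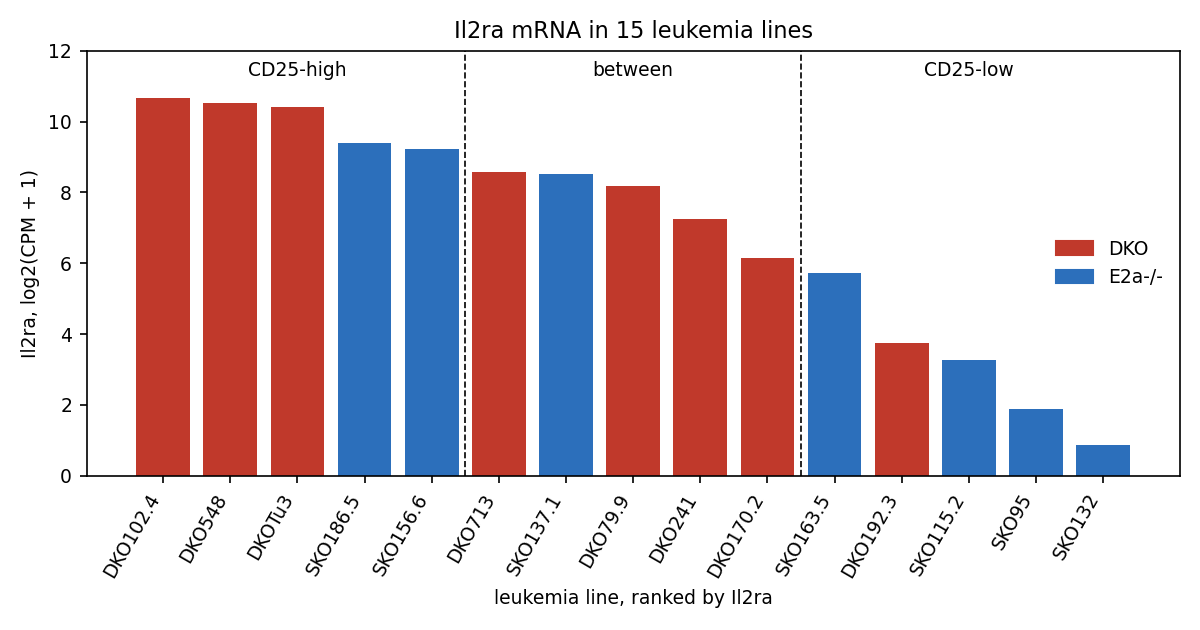
*Il2ra* as log2(CPM + 1) in the 15 lines, each bar 1 library, in order of level, with DKO lines in red and E2a-/- lines in blue; dashed lines set off the 5 CD25-high and 5 CD25-low lines. The bars fall in a gradient from 1636 CPM in DKO102.4 to 0.827 CPM in SKO132, and both genotypes stand on both sides.

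The 10 compared lines had 14477802 to 21681586 reads on listed genes, and 3 reads corresponded to at most 0.207 CPM in each; the shallowest library of the series, DKO79.9, was among the lines left between the sides. *Lef1* checked the genotype labels: it ran from 103 to 210 CPM in the DKO lines and from 668 to 1558 CPM in the lines labelled E2a-/- other than SKO132, the library whose *Lef1* goes against its label. SKO132 also stood apart in *Notch1*, with 31.3 CPM against 830 CPM or more in every other line. SKO186.5 and SKO156.6, both on the high side, were the pair of lines most alike (Spearman's rho 0.987 across genes). Their reads differed beyond sampling noise (chi-square per degree of freedom 56.0), but so did those of every pair (43.0 or more). This value therefore cannot tell whether the 2 arose separately. They were kept as 2 lines, and fits with them averaged or left out are given below. T lineage genes were present on both sides, with a sum over 12 listed members of 6618 to 7807 CPM on the high and 5159 to 8433 CPM on the low side. Of the markers of other cells, *Csf1r* and *Foxp3* were not among the listed genes. The 5 listed myeloid markers summed to 13.1 to 19.9 CPM on the high and 9.95 to 26.8 CPM on the low side. Other lists held more. The 8 innate lymphoid and NK markers summed to 290.9 to 1094.5 CPM on the high and 418.8 to 1221.8 CPM on the low side. Among them *Gzma* averaged 426.2 and 540.75 CPM. The 5 thymic stroma markers summed to 150.15 to 692.96 CPM and 186.99 to 1189.9 CPM in that order. *Col1a2* averaged 196.5 and 251.1 CPM and *Pdgfrb* 184.5 and 89.2 CPM. The 3 B cell markers summed to 82.5 to 151.8 CPM and 26.3 to 262.7 CPM. Whether other cells were present was not tested. In bulk RNA, fewer cells expressing a gene and less RNA per cell cannot be told apart.

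Of 12544 genes tested, 16 (0.128%) were called at an adjusted p under 0.05 by limma with Benjamini-Hochberg adjustment, 13 of them higher (0.104%) and 3 lower (0.0239%) in the CD25-high lines. The 13 higher were *Il7r*, *Necab1*, *Tnfsf8*, *Tceal8*, *Trim2*, *Fabp4*, *Fstl3*, *Strip2*, *Ahcyl2*, *Napepld*, *Minpp1*, *Lamp2* and *Dnajc27*, and the 3 lower were *Pde7a*, *Ptk2* and *Mtss1*. The sides did not overlap in any of the 16, which was true of 278 genes in all (2.22%), 144 with the high side above and 134 with it below. The number called depended on the test: on whole reads recovered from the CPM values, edgeR's quasi-likelihood test called 4 genes (4 higher, 0 lower), its likelihood ratio test 151 (79 higher, 72 lower) and DESeq2 415 (180 higher, 235 lower). The likelihood ratio test and DESeq2 each called all 16. The median log2 fold change over all genes was -0.02. The limma count also depended on single lines: it was 5 without SKO186.5 or without SKO163.5, 6 without SKO156.6 or without SKO115.2, 8 without SKO95, 21 without DKO192.3 and 23 without SKO132. Only *Il7r*, *Tceal8*, *Tnfsf8* and *Trim2* were called with each of the 10 lines left out in turn. Without both SKO186.5 and SKO156.6, which leaves 3 DKO lines on the high side, 13 genes were called, and 4 of them, *Il7r*, *Tceal8*, *Tnfsf8* and *Minpp1*, were among the 16. Fold changes below are differences of mean log2(CPM + 1), high minus low, with their standard error (SE), and this scale understates the change of genes near 0.

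**Figure D2:**
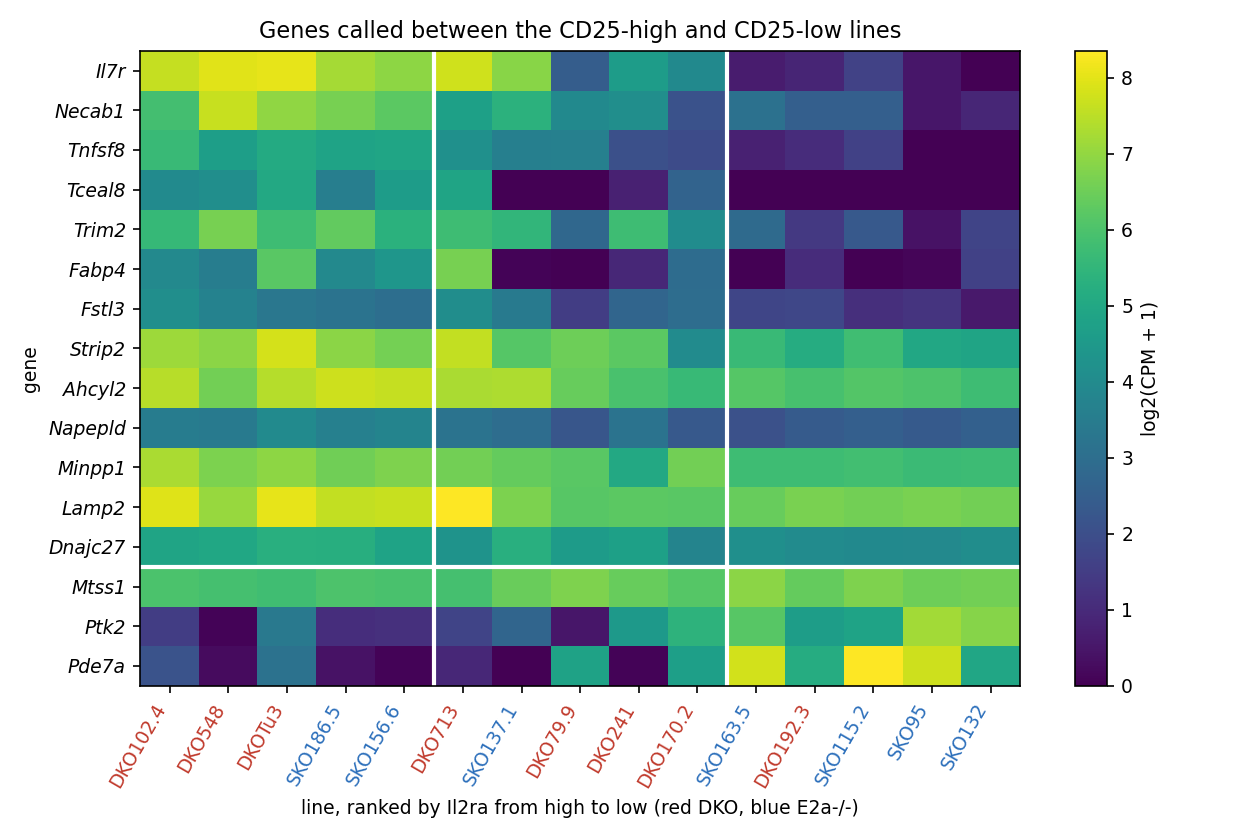
The 16 called genes in the 15 lines, 1 row per gene and 1 column per line in order of *Il2ra*, coloured by log2(CPM + 1); vertical white lines set off the sides and the horizontal one the 13 higher from the 3 lower genes. The CD25-high columns differ from the CD25-low columns in each row, and the columns between them are mixed.

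*Il7r*, the interleukin-7 receptor alpha chain, differed most. It stood at 197 CPM in DKO102.4, 253 in DKO548, 262 in DKOTu3, 148 in SKO186.5 and 121 in SKO156.6, against 0.538 in SKO163.5, 0.841 in DKO192.3, 2.12 in SKO115.2, 0.415 in SKO95 and 0 in SKO132. Every high line held at least 121 CPM and no low line more than 2.12 CPM, in both genotypes, though DKO192.3 was the only DKO line on the low side. The log2 fold change was 6.83 (SE 0.32, limma adjusted p = 1.45e-05), and it lay between 6.65 and 7.06 with any 1 line left out. *Il7r* was called in 25 of 25 alternatives of this comparison made without genotype, with a highest adjusted p of 0.0135. In the fit against *Il2ra* level it was not called without both SKO156.6 and SKO186.5, nor among the 8 DKO lines alone. Among the lines between the sides, DKO713 and SKO137.1 reached 216 and 117 CPM, while DKO79.9, DKO241 and DKO170.2 held 4.53, 23.8 and 14.7 CPM. *Il2ra* and *Il7r* are on different chromosomes.

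*Tnfsf8*, the ligand of the receptor CD30, was the other called gene with a known role between lymphocytes. It stood at 49.4 CPM in DKO102.4, 24.7 in DKO548, 33.3 in DKOTu3, 27.7 in SKO186.5 and 29.3 in SKO156.6. On the low side it stood at 0.699 CPM in SKO163.5, 1.08 in DKO192.3, 2.07 in SKO115.2 and 0 in SKO95 and SKO132. The high lines thus lay above 24 CPM and the low lines at or below 2.07 CPM (log2 fold change 4.35, SE 0.34, limma adjusted p = 6.78e-04). Its level followed the order of *Il2ra* more closely than that of any other listed gene, with a Spearman's rho of 0.956 over the 15 lines, given as a description.

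3 further genes had log2 fold changes above 4. *Tceal8*, an X-linked member of the transcription elongation factor A-like family, stood at 15.1 CPM in DKO102.4, 16.6 in DKO548, 32.1 in DKOTu3, 11.05 in SKO186.5 and 23.5 in SKO156.6, and had no read in any of the 5 low lines. Taken against the value that 3 reads give in a low line (at most 0.165 CPM), the high mean of 19.7 CPM was at least 119-fold higher (limma adjusted p = 1.01e-04). *Trim2*, a ubiquitin ligase known from neurons, stood at 47.5, 99.2, 53.4, 80.7 and 39.5 CPM in the high lines and at 6.40, 1.59, 4.04, 0.323 and 2.32 CPM in the low lines, both in the order of falling *Il2ra* (log2 fold change 4.196, SE 0.45, limma adjusted p = 0.00876). The lowest high line of *Trim2* thus held more than the highest low line. *Necab1*, a calcium-binding protein also known from neurons, stood at 56.8, 198, 125, 100 and 75.8 CPM in the high lines and at 7.69, 4.77, 4.82, 0.415 and 0.882 CPM in the low lines in the same order. Its log2 fold change was 4.76 (SE 0.54, limma adjusted p = 0.0118), and without SKO186.5 its adjusted p was 0.0522.

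Of the other 8 higher genes, *Fabp4*, a fatty acid-binding protein of adipocytes and macrophages, was at 10.5 to 72.9 CPM in the high and 0 to 2.04 CPM in the low lines (log2 fold change 3.84, SE 0.53, limma adjusted p = 0.0343). Of the compared lines DKOTu3 alone exceeded 20 CPM, and DKO713, between the sides, held 98.7 CPM. *Napepld*, an enzyme that makes N-acylethanolamines, was at 9.95 to 14.98 against 3.23 to 4.91 CPM. *Minpp1*, an inositol polyphosphate phosphatase, was at 93.1 to 155 against 50.3 to 56.3 CPM, and the low lines were close together (log2 fold change 1.09, SE 0.13, limma adjusted p = 0.0129, and 0.0547 without SKO163.5). *Lamp2*, a membrane protein of lysosomes, was at 134 to 263 against 83.4 to 100.2 CPM, and *Fstl3*, a secreted protein that binds activins, at 7.18 to 16.3 against 0.496 to 2.43 CPM. *Strip2*, *Ahcyl2* and *Dnajc27* had log2 fold changes of 1.77, 1.36 and 0.996, with limma adjusted p values of 0.0388, 0.0388 and 0.0259. Apart from *Minpp1*, these genes kept their call in 1 to 4 of the 10 analyses that left out a line.

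Of the 3 genes called lower, *Pde7a*, a phosphodiesterase that degrades cyclic AMP, stood at 3.42 CPM in DKO102.4, 0.173 in DKO548, 7.83 in DKOTu3, 0.332 in SKO186.5 and 0.069 in SKO156.6, against 221 in SKO163.5, 35.1 in DKO192.3, 324 in SKO115.2, 209.98 in SKO95 and 29.9 in SKO132. No high line reached 8 CPM and no low line was under 29 CPM (log2 fold change -5.59, SE 0.85, limma adjusted p = 0.045). *Ptk2*, the focal adhesion kinase, was at 0.0575 to 9.52 CPM in the high and 23.9 to 144 CPM in the low lines (log2 fold change -4.49, SE 0.68, limma adjusted p = 0.045). *Mtss1*, a protein of membrane and actin remodelling, was at 54.2 to 63.6 against 83.1 to 117.9 CPM (log2 fold change -0.70, SE 0.10, limma adjusted p = 0.045). *Pde7a* stayed called in 3, *Ptk2* in 2 and *Mtss1* in 1 of the 10 analyses that left out a line. The genes next in order on this side were not called: *Tox*, a transcription factor of T cell development, was at 18.4 to 47.8 against 56.2 to 111 CPM (limma adjusted p = 0.0624), and *Igf2r*, the mannose 6-phosphate receptor, at 5.57 to 57.3 against 134 to 183 CPM (limma adjusted p = 0.0699). *Ube2e2*, *Ogdhl*, *Tmem8b*, *Sema4d* and *Tmem106c* also did not overlap between the sides and had adjusted p values of 0.0624 to 0.0752.

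With genotype as a term, limma called 11 genes (0.0877%), 10 higher and 1 lower, and 7 of them were among the 16. These 7 were *Il7r* (log2 fold change 6.61, adjusted p = 8.27e-05), *Tceal8* (4.21, adjusted p = 7.27e-04), *Tnfsf8* (4.22, adjusted p = 0.00407), *Trim2*, *Necab1*, *Ahcyl2* and *Minpp1* (each at an adjusted p of 0.0411). The other 9 of the 16 had adjusted p values of 0.0709 to 0.12 with the term, and fold changes close to those without it, such as -5.65 for *Pde7a*, -4.36 for *Ptk2*, 3.64 for *Fabp4*, 1.93 for *Fstl3* and -0.63 for *Mtss1*. *Mapre2*, a protein that binds growing microtubule ends, was called only with the term (log2 fold change 2.59, adjusted p = 2.19e-04, against 2.101 and 0.0785 without it). It was at 84.5 to 111 CPM in the 3 high DKO lines, 209 and 240 CPM in the 2 high E2a-/- lines, 14.5 CPM in the low DKO line and 29.2 to 44.6 CPM in the 4 low E2a-/- lines, so within each genotype the high lines held more. The other 3 were *Mecom*, a zinc finger factor of blood stem cells and myeloid leukemia, *Lpar4*, a receptor for lysophosphatidic acid, and, lower, *Ephb6*, an ephrin receptor without kinase activity (each at an adjusted p of 0.0411). DKO192.3 was the only DKO line on the low side, and without it 112 genes were called. In that fit the difference between the sides came only from SKO186.5 and SKO156.6, the pair most alike, against the 4 low E2a-/- lines. The count was 3 without SKO186.5, 3 without SKO156.6, 4 without SKO115.2 and 6 without SKO163.5. Without SKO132, whose *Lef1* goes against its label, 8 genes were called with the term, 3 of them among the 16.

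Using *Il2ra* as a continuous measure over all 15 lines, with genotype as a term, limma called 25 genes (0.199%), 18 rising and 7 falling with *Il2ra*, of which 8 were among the 16. *Necab1* rose by 0.70 (adjusted p = 3.52e-04), *Tnfsf8* by 0.60 (adjusted p = 4.93e-04) and *Il7r* by 0.92 (adjusted p = 0.00499) on the log2 scale for each log2 unit of *Il2ra*. *Trim2*, *Ahcyl2*, *Fstl3*, *Dnajc27* and, falling, *Ptk2* were the others shared. *Klf13*, a zinc finger transcription factor, rose by 0.19 per unit (adjusted p = 0.00497) and was at 231 to 311 CPM in the high and 93.0 to 183 CPM in the low lines. 3 genes of the interferon-inducible p200 family on chromosome 1, *Ifi202b*, *Ifi203* and *Ifi204*, rose by 0.53, 0.27 and 0.23 per unit (adjusted p = 0.0171, 0.0171 and 0.0372); they were grouped, and *Klf13* and *Wnt5b* were picked out, after their values were seen, and family members are similar enough in sequence for reads to be shared between them. *P2ry10*, a lysophospholipid receptor of lymphocytes, *Smpd3*, a sphingomyelinase, *Wnt5b* and *Tmem45a* also rose, while *Gmds*, which makes GDP-fucose, *Itih5*, *Mcf2l*, *Dhrs3*, *Ogdhl* and *Tlr6* fell. The count was 7 without SKO186.5 and 7 without SKO156.6, 11 without SKO95, 12 without SKO132, 14 without DKO192.3 and 16 without DKO102.4. Without both SKO156.6 and SKO186.5 it was 1, *Necab1*. The slope was not called different between the genotypes for any gene by limma, with 759 genes at an unadjusted p under 0.05. Among the 8 DKO lines alone limma called 0 genes, with 674 at an unadjusted p under 0.05, and among the 7 E2a-/- lines alone it called 6.

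**Figure D3:**
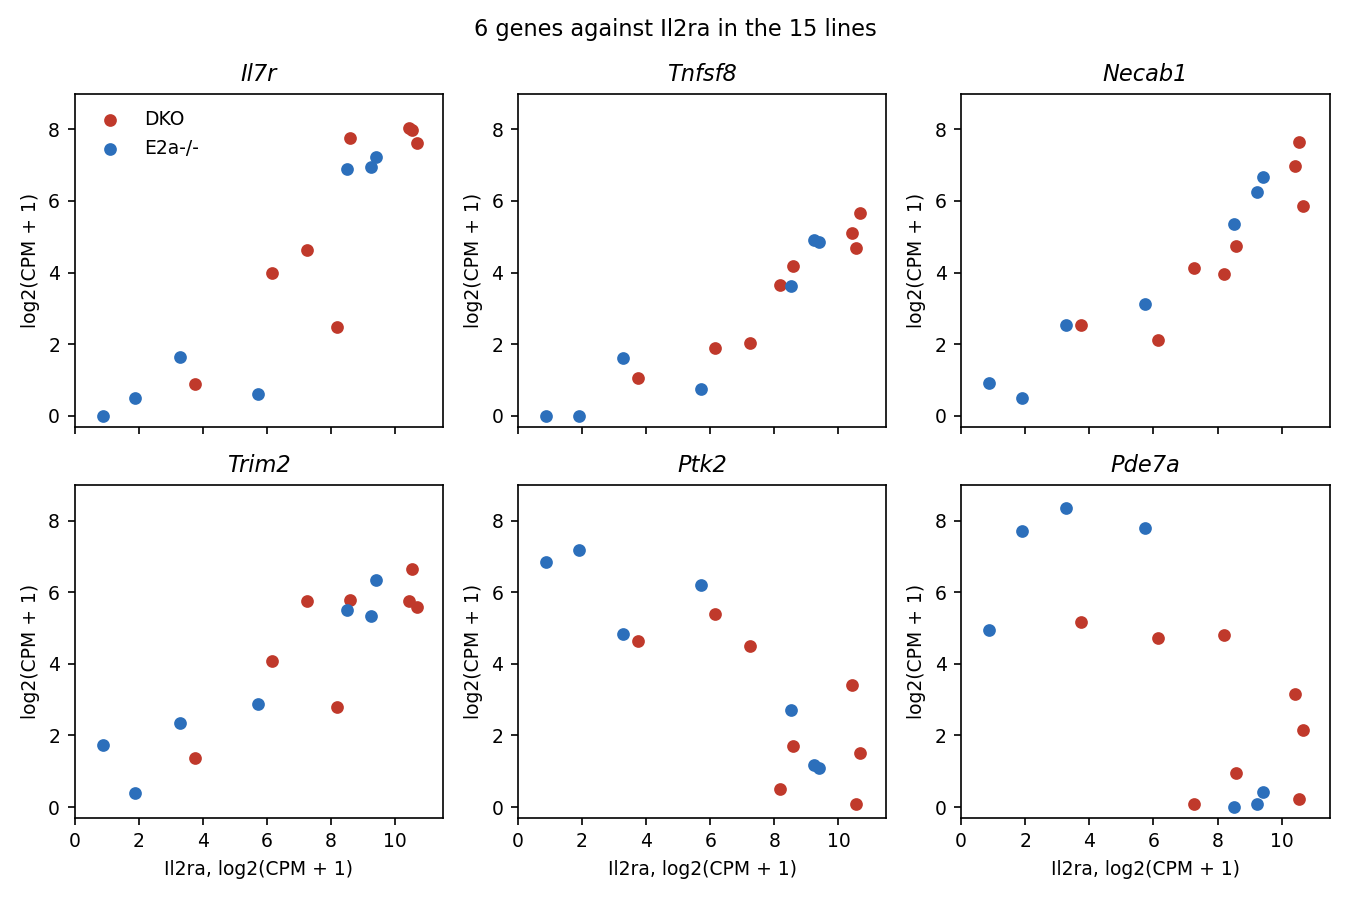
6 called genes against *Il2ra* in the 15 lines, both axes as log2(CPM + 1), 1 point per line, DKO in red and E2a-/- in blue. *Il7r*, *Tnfsf8*, *Necab1* and *Trim2* stand higher on the CD25-high than on the CD25-low side in both genotypes, and *Ptk2* and *Pde7a* lower. DKO192.3 is the only DKO line on the low side. The 5 lines between the sides spread from 4.53 to 216 CPM for *Il7r* and 5.98 to 53.5 CPM for *Trim2*. For *Ptk2* they spread from 0.412 to 40.8 CPM and for *Pde7a* from 0 to 27.2 CPM. Over all 15 lines with genotype as a term, *Pde7a* was not called (limma adjusted p = 0.164).

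The 5 lines that took no part in the comparison showed how far the 16 genes followed *Il2ra* outside it. DKO713, with the highest *Il2ra* of the 5, was at or beyond the near edge of the high side in 12 of the 16 genes and of the low side in 0. SKO137.1, with 364 CPM of *Il2ra*, was there in 6 and on the low side in 3. DKO79.9, DKO241 and DKO170.2, with 291, 152 and 70.1 CPM of *Il2ra*, were on the high side in 1, 2 and 1 of the genes and on the low side in 7, 5 and 7. *Tceal8* showed the difference plainly: it was at 28.6 CPM in DKO713 but at 0 in SKO137.1 and DKO79.9, which had 364 and 291 CPM of *Il2ra*.

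Of the IL-2 and common gamma chain receptors with their JAK-STAT genes, 21 of 24 were listed and 1 was called, *Il7r*, with a median log2 fold change of 0.13 over the list and 0.08 with genotype as a term. The partner chains of CD25 were not called: *Il2rb* was at 0 to 7.26 CPM in the high and 0.276 to 43.8 CPM in the low lines, and *Il2rg* at 78.7 CPM ± 20.6 against 96.1 CPM ± 21.3 (SD, n = 5 each; limma adjusted p = 0.638). *Jak1*, *Jak3*, *Stat5a* and *Stat5b* had log2 fold changes of -0.21, -0.69, 0.32 and 0.21 and overlapped between the sides. *Socs1*, a feedback inhibitor of JAK kinases, averaged 12.5 CPM on the high and 4.23 CPM on the low side without overlap, but was not called (limma adjusted p = 0.256). *Socs2*, of the same family, averaged 11.6 against 2.16 CPM (log2 fold change 2.23, limma adjusted p = 0.268), and *Bcl2*, which blocks apoptosis, averaged 4.14 against 55.5 CPM in the other direction (-3.04, limma adjusted p = 0.356), both with overlap. *Il2* itself was not among the listed genes. *Jak1*, *Jak3*, *Stat5a*, *Stat5b*, *Socs1*, *Socs2* and *Bcl2* were picked out after their values were seen.

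No gene of the other lists was called, against 0.128% of all genes. Of 24 listed Notch receptors, regulators and targets, 12 had a log2 fold change above and 12 below 0, with a median of 0.00 at 2 decimals. *Notch1* itself was at 1089 to 1410 CPM in the high lines and at 1639 to 2266 CPM in the low lines other than SKO132. With SKO132, at 31.3 CPM, the sides overlapped (log2 fold change 0.46, SE 1.07, limma adjusted p = 0.911). The lines between the sides held 830 to 2031 CPM. Of 22 listed factors known to act at *Il2ra*, the median was -0.01 (0.02 with genotype as a term), with *Hmga1*, a chromatin protein, at 121 CPM ± 15.7 against 87.0 CPM ± 25.2 and *Nfatc2*, a calcium-regulated factor, at 4.68 CPM ± 3.86 against 14.9 CPM ± 8.55 (SD, n = 5 each).

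The 15 listed DN3 and pre-TCR genes had a median of 0.28, which was 0.04 with genotype as a term. *Rag1*, which cuts antigen receptor genes for recombination, was at 1029 to 2228 CPM in the high and 206 to 775 CPM in the low lines, without overlap (log2 fold change 1.96, SE 0.40, limma adjusted p = 0.129). Its partner *Rag2* was at 60.03 CPM ± 22.8 against 21.4 CPM ± 19.7 (SD, n = 5 each; limma adjusted p = 0.426), and *Ptcra*, the pre-TCR alpha chain, at 40.8 CPM ± 21.2 against 46.5 CPM ± 46.3. Of the 26 DP and mature thymocyte genes, 20 had a log2 fold change below 0, with a median of -0.64, yet *Cd4* was at 4.31 to 44.2 CPM in the high and 0.570 to 5.38 CPM in the low lines (limma adjusted p = 0.256). *Cd8a* was high and low on both sides, from 0.828 to 299 CPM in the high and 0.230 to 290 CPM in the low lines. *Tcf7*, a factor of early T cell commitment related to *Lef1*, was at 2534 CPM ± 430 against 1943 CPM ± 752 (SD, n = 5 each).

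Among the TCR signalling and activation genes (median -0.17, 23 listed), 8 had a log2 fold change above and 15 below 0. *Irf4*, a factor induced by receptor signalling, was at 24.1 to 416 CPM in the high and 1.11 to 20.6 CPM in the low lines (log2 fold change 3.39, SE 0.86, limma adjusted p = 0.227). *Syk* averaged 130 against 0.703 CPM (limma adjusted p = 0.338) and *Batf* 0.857 against 29.5 CPM (limma adjusted p = 0.421), both with overlap. *Syk* and *Batf* were picked out after their values were seen. Of the 9 listed regulatory T cell markers, 8 had a log2 fold change below 0 (median -0.98, and -0.36 with genotype as a term), and *Tnfrsf18*, the receptor GITR, was at 5.04 to 8.10 CPM against 10.6 to 16.3 CPM without overlap (limma adjusted p = 0.114). The 16 listed NF-kappaB pathway genes had a median of -0.33 and the 28 cell cycle and replication genes of 0.03. Within the latter *Ccnd2*, a G1 cyclin, ran from 5.06 to 215 CPM in the high and from 0 to 12.9 CPM in the low lines, and the sides overlapped. The 26 T-lineage transcription factors had a median of -0.10, and of 0.03 with genotype as a term, and the 8 progenitor genes had one of -0.35. Among the latter *Kit*, the stem cell factor receptor, was at 0.115 to 23.3 CPM in the high and 0 to 104 CPM in the low lines. The lists for B cells, innate lymphoid and NK cells, myeloid cells, erythroid cells and platelets, and thymic stroma had 3, 8, 5, 2 and 5 listed genes and medians of -0.54, 0.09, -0.12, -0.41 and 0.28, which were -0.46, -0.04, -0.22, -0.23 and 0.09 with genotype as a term, and their part in the differences above was not tested.

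**Figure D4:**
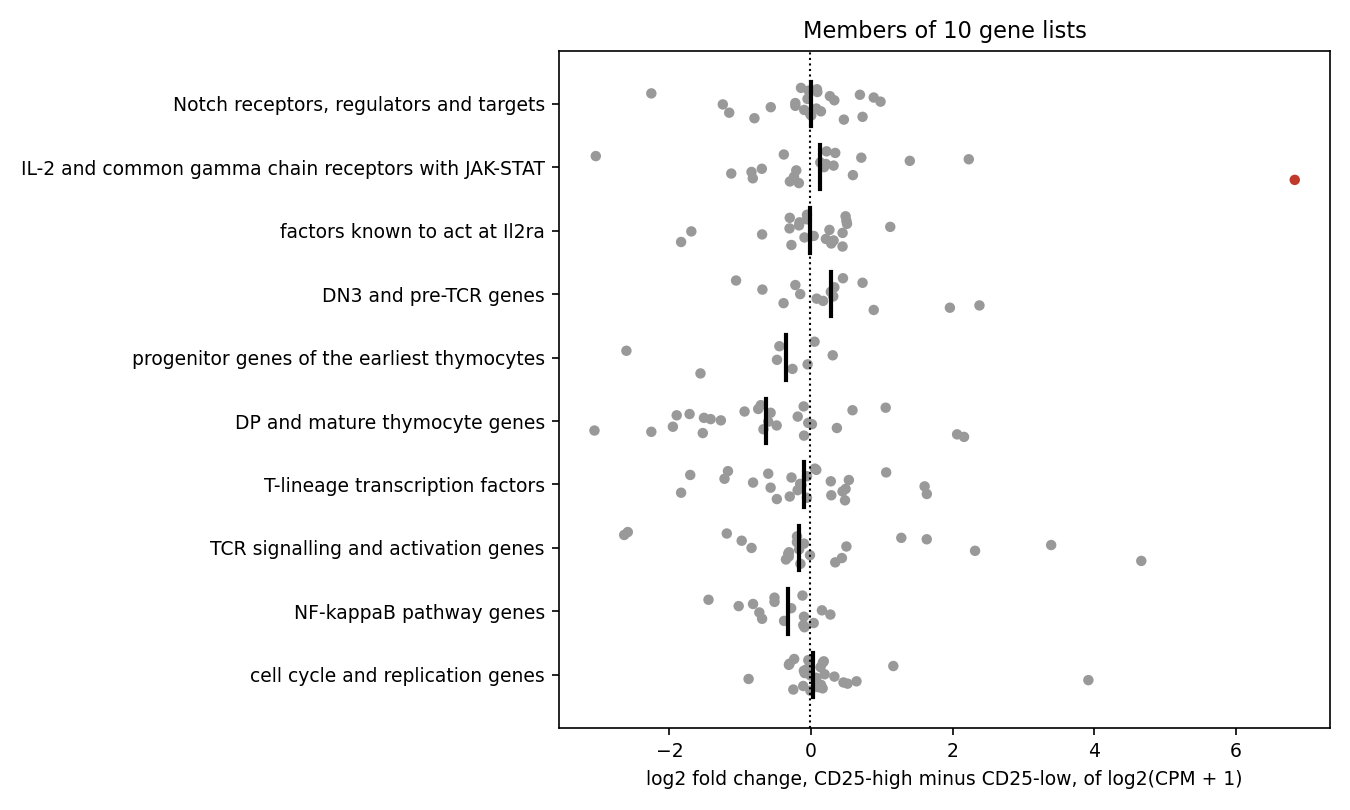
Log2 fold change (high minus low, of log2(CPM + 1)) of each listed member of 10 gene lists, 1 point per gene, red where called, with a black bar at the list's median and a dotted line at the median of all genes. *Il7r* at 6.83 is the one red point, and the list medians lie between -0.64 and 0.28.

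None of the 8 genes listed within 1 Mb of *Il2ra* on chromosome 2 was called, against 0.128% of all genes. The sides overlapped in each of the 8, as they did in all but 2.22% of all genes. *Il15ra*, the alpha chain of the interleukin-15 receptor, was at 26.4 CPM ± 14.6 against 20.5 CPM ± 11.9, *Rbm17* at 215 CPM ± 29.1 against 234 CPM ± 59.96 and *Pfkfb3*, a regulator of glycolysis, at 29.0 CPM ± 12.3 against 41.5 CPM ± 11.7 (SD, n = 5 each). *Mindy3*, *Prkcq*, *Ankrd16*, *Fbh1* and ENSMUSG00000075532 had log2 fold changes between -0.22 and 0.00. Over the 15 lines the genes whose order was most like that of *Il2ra* were *Tnfsf8*, *Il7r* (Spearman's rho 0.932), *Necab1* (0.929), *Gm15558* (0.889) and *Fstl3* (0.886). The most opposite orders were those of *Olfml2a* (-0.904), *Igf2r* (-0.854), *Cacna2d4* (-0.854), *Wdsub1* (-0.850) and *Ccdc150* (-0.846). *Gm15558*, *Olfml2a* and *Ccdc150* were under 4 CPM in every line.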

How the data were processed

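RNA-sequencing was analysed from 15 leukemia lines, 1 library each, grouped by the genotype in the labels. According to the methods, reads from a NextSeq500 were trimmed (Trimmomatic 0.33), aligned to mm10 (TopHat2 2.1.0) and counted per gene with HTSeq 0.6.1, without molecular identifiers. The authors deposited CPM values made with edgeR for 12545 genes, 12172 with a symbol in the annotation used here. Of these, 12157 are on the same chromosome in GRCm38 but 190 start within 1 base of their GRCm38 position, so the listed positions are of another assembly. Each value was a whole multiple of 1 read for 100% of values in every line (tolerance 0.05), and those reads served the count models only. Libraries held 4847970 to 21681586 reads on listed genes.

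Lines were ranked by *Il2ra* and the 5 highest set against the 5 lowest. limma 3.58.1 (R 4.3.3), with a variance trend and Benjamini-Hochberg adjustment over 12544 genes (*Il2ra* left out), was fitted 2-sided to log2(CPM + 1), without and with genotype, and over all 15 lines against log2 *Il2ra*. Genes were called at an adjusted p under 0.05. The unit is CPM, so edgeR, the study's tool, was an alternative. P-values measure the spread between lines, which are separate cultures of unknown batch. Exact tests used Python 3.11.15 (scipy 1.17.1). The scripts were tested on simulated data. The members and gene lists were chosen with earlier results of these data known. Genes named are up to 15 called per direction, filled to 10 by unadjusted p; up to 4 per list; 12 fixed genes; those within 1 Mb of *Il2ra*; the 5 most and 5 least like it in rank; and up to 10 per direction called with genotype or over 15 lines. Alternatives were pseudocounts of 0.1 and 2, a mean of at least 1 CPM, no trend, array weights, 2 other scalings, other thresholds and side sizes, lines left out or averaged, and edgeR 4.0.16 and DESeq2 1.42.0 on the recovered reads. Fits within 1 genotype and without both SKO156.6 and SKO186.5 were added after seeing the data.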

Additional observations from a re-analysis of the deposited data

Results flagged for a closer look

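In 4 of 54 gene-by-side groups of 5 lines examined, 1 line stood far from the other 4 by Dixon's test; chance alone flags about 1 in 20 groups, or 2.7 here. *Ahcyl2* was at 95.3 CPM in DKO548, against 169.7 to 208 CPM in the other high lines. *Notch1* was at 31.3 CPM in SKO132, against 1639 to 2266 CPM in the other low lines. *Cd44* was at 0.978 CPM in DKO102.4, against 0 to 0.105 CPM in the other high lines. *Il2rb* was at 0 CPM in DKO548, against 5.22 to 7.26 CPM in the other high lines.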

How the results depend on the processing

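No paired analysis was possible because the lines of the 2 sides share no replicate number that marks a common source. The 16 genes called between the sides became 10 with a pseudocount of 0.1, 10 without a variance trend, 6 with SKO156.6 and SKO186.5 averaged, 4 by edgeR's quasi-likelihood and 151 by its likelihood ratio test, 415 by DESeq2, 5 for 4 against 4 lines, 44 for 7 against 8, 4 with all 15 lines and the middle ones as a group of their own, 4 at an adjusted p under 0.01, and 5 to 23 with 1 line left out. The 11 with genotype became, for the same choices, 3, 7, 3, 2 (quasi-likelihood), 429 (DESeq2), 4 (0.01), 66 with array weights and 3 to 112 with 1 line left out. The 112 came without DKO192.3, which left no DKO line on the low side. The 25 over 15 lines became 70 with array weights, 6 with the pair averaged, 0 in DKO lines alone, 6 in E2a-/- lines alone, 1 without the pair, 6 at 0.01, and 7 to 31 with 1 line left out. The genotype comparison of *Il2ra* and that of the sides kept their side of the threshold under every alternative run. Only genes not called reversed. *Lef1* (main -0.48) was 0.17 for 7 against 8 and 0.57 with genotype. *Notch1* (0.46) was -0.28 with array weights, -0.42 by both edgeR tests and -0.43 by DESeq2. *Cd8a* (-0.10) was 0.0152 with a pseudocount of 0.1, 0.85 with the pair averaged, 0.33 by both edgeR tests, 0.32 by DESeq2, 1.45 for 4 against 4, 0.30 for 7 against 8 and 2.38 without the pair. *Ptcra* (0.89) was -0.18 by each count model, and *Il2rb* (-0.17) was 0.0055 for 4 against 4 and 0.32 with genotype. In the same way *Mindy3* was 0.0123 (4 against 4), 0.0704 (7 against 8) and 0.0875 (genotype), *Prkcq* 0.0108 (averaged), 0.11 (4 against 4), 0.14 (without the pair) and 0.0254 (genotype), and *Itga2b* 0.00599 (without the pair). ENSMUSG00000075532 was 0.0391 with array weights, 0.00213 and 0.000598 by the other scalings, 0.00878 with the pair averaged, 0.00895 and 0.00765 by edgeR, 0.0916 for 7 against 8, 0.0305 without the pair and 0.000324 with genotype. With 1 line left out the ranges were -1.17 to 0.0091 for *Lef1*, -0.73 to 0.80 for *Notch1*, -1.31 to 0.94 for *Cd8a*, -0.15 to 1.46 for *Ptcra*, -0.69 to 0.60 for *Il2rb*, -0.0938 to 0.89 for *Il15ra*, -0.12 to 0.0733 for *Mindy3*, -0.35 to 0.15 for *Prkcq*, -0.23 to 0.0193 for *Rbm17* and -0.0687 to 0.0797 for ENSMUSG00000075532. The cause of these shifts was not tested. Values under 0.207 CPM in a compared line rest on fewer than 5 reads, and values of up to 3 reads were not told apart from 0.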
